A study of Bos taurus with 12 samples.

Results

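Expression of 10 genes that mark the trophectoderm was compared gene by gene across 4 kinds of bovine blastocyst. Of these genes 8 encode transcription factors (CDX2, GATA2, GATA3, TFAP2A, TFAP2C, TEAD4, ELF3 and ASCL2) and 2 encode the simple epithelial keratins KRT8 and KRT18. Members were the probe sets that carried only the symbol of 1 of these genes, and each gene had 1 such probe set, so that 10 of the 26773 probe sets of the table, or of the 18457 with a single symbol, were described. All 10 passed the filter on low values. Day 7 expanded blastocysts were measured as pools of 15 to 20 embryos on 12 bovine gene arrays, 3 biological replicates for each of 4 groups. VIVO embryos grew in superovulated and inseminated Simmental heifers and served as the control. VITRO embryos were matured, fertilized and cultured in vitro. IFOT-M embryos came from oocytes matured in vitro and then placed into preovulatory follicles (a sample label says dominant follicles), and IFOT-IM embryos from immature oocytes placed into dominant follicles. In both the embryos were fertilized and developed in the recipient, a synchronized and inseminated heifer for which no superovulation is described. The oocytes of VITRO, IFOT-M and IFOT-IM were taken from slaughterhouse ovaries, whereas those of VIVO grew in the superovulated donors. The origin of the oocyte and superovulation thus both set VIVO apart from all other groups and cannot be told apart here. The paper proposes that superovulation may contribute to differences between IFOT-IM and VIVO. Semen of the same bull was used throughout. Pools of the IFOT groups could hold an embryo of the recipient's own oocyte.

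The trophectoderm is the outer epithelium of the blastocyst and gives rise to the fetal part of the placenta. In the mouse, outer cells with apical polarity shut off Hippo signalling, YAP1 and WWTR1 then enter the nucleus and bind TEAD4, and CDX2 and GATA3 are switched on. TFAP2C, TFAP2A and GATA2 take part in the same trophoblast programme, and KRT8 and KRT18 pair with each other to form the intermediate filaments of the new epithelium. In ruminants the trophectoderm later secretes interferon tau, the signal by which the mother recognizes pregnancy.

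Signals are given as log2 values after robust multi-array averaging (RMA), and a log2 difference of 1 is a 2-fold change. Groups were compared with limma fitted to all 4 groups, and a gene was called at an FDR (Benjamini and Hochberg, over all probe sets tested) below 0.1 at any fold change. The methods name a quantile step within RMA, yet the deposited arrays did not share 1 distribution: array medians ran from 1.75 to 1.78 for VIVO, from 1.84 to 1.86 for IFOT-M, from 1.86 to 1.93 for IFOT-IM and from 1.95 to 1.97 for VITRO, and strong signals were lower in VITRO, with a 95th percentile of 5.15 to 5.24 against 5.77 to 5.82 in VIVO. IFOT-IM replicate 1, with a 95th percentile of 5.27, lay closer to VITRO than to the other IFOT-IM arrays at 5.53 and 5.54. The members were therefore also compared after the deposited values were put on a common scale by quantile or cyclic loess normalization. The RNA integrity stated for the VITRO pools was lower than that of the other groups, and its part in the results was tested only as a covariate. Because whole blastocysts were pooled, fewer trophectoderm cells and less RNA per cell cannot be told apart.

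**Figure D1:**
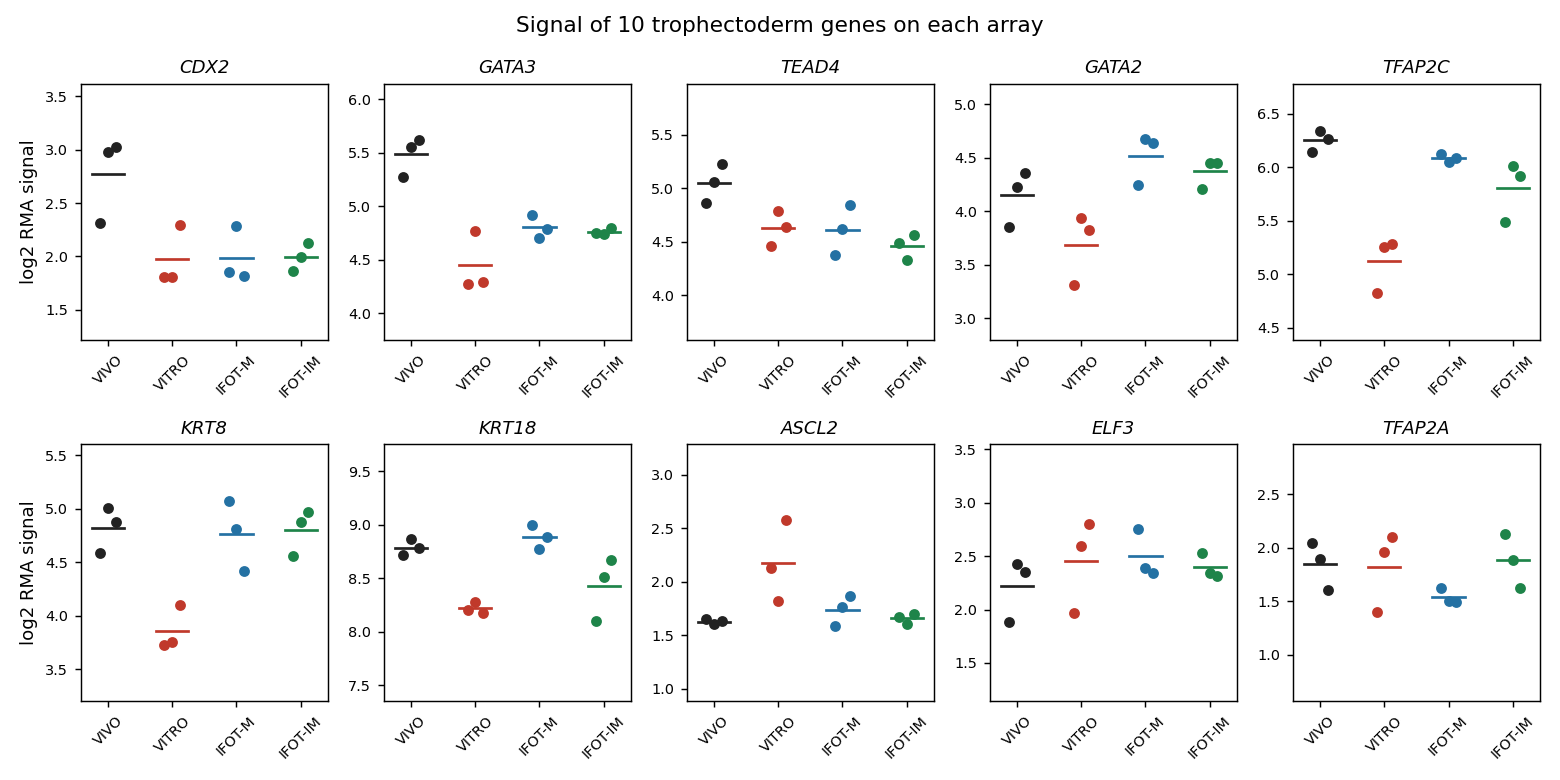
Log2 RMA signal (y axis) of the 10 genes in each of the 4 groups (x axis), with 1 point for each array and a bar at the mean of 3 arrays; every panel spans the same range of log2 units. CDX2 and GATA3 were highest in all 3 VIVO arrays, and TFAP2C and KRT8 were lowest in all 3 VITRO arrays.

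In the test over the 4 groups, 8 of the 10 genes passed an FDR of 0.1, against 36.3% of all probe sets. The lowest FDR belonged to TFAP2C (0.00122) and GATA3 (0.0019), and KRT8 (0.00469), KRT18 (0.0116), GATA2 (0.0232), CDX2 (0.0241), TEAD4 (0.0475) and ASCL2 (0.0638) followed. TFAP2A (FDR = 0.423) and ELF3 (FDR = 0.678) did not pass.

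Compared with VIVO, 7 genes were lower and 1 was higher in VITRO, where 47.8% of all probe sets were called, 22.7% lower and 25.1% higher. GATA3 and TFAP2C were also past a 2-fold change, as were 7.51% of all probe sets. For IFOT-M the test called 2 genes, both lower (background 10.1%, of which 6.87% lower and 3.21% higher), and for IFOT-IM it called 4, all lower (background 20.6%, with 12.6% lower and 7.95% higher). The arrays of the 2 groups did not overlap for 7 genes with VITRO (50% of all probe sets), 4 with IFOT-M (31.5%) and 5 with IFOT-IM (36.3%). The 3 comparisons share the VIVO arrays, and CDX2 and GATA3 were called lower in each. The median change of the 10 genes was -0.51 for VITRO, -0.11 for IFOT-M and -0.19 for IFOT-IM, beside 0.13, 0.05 and 0.08 over all probe sets tested.

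On a common scale the counts were smaller, except in IFOT-M with cyclic loess. Quantile normalization left 4 genes called in VITRO (29.4% of all probe sets), 1 in IFOT-M (6.75%) and 1 in IFOT-IM (12%), all of them lower. With cyclic loess there were 3 in VITRO, all lower (28.4%), 3 in IFOT-M (9.26%) and 2 in IFOT-IM (14.3%), where GATA2 was called higher in each IFOT group. The median change of the members on the quantile scale was -0.25, 0.01 and -0.11, and that of all probe sets was 0, 0 and 0.01.

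**Figure D2:**
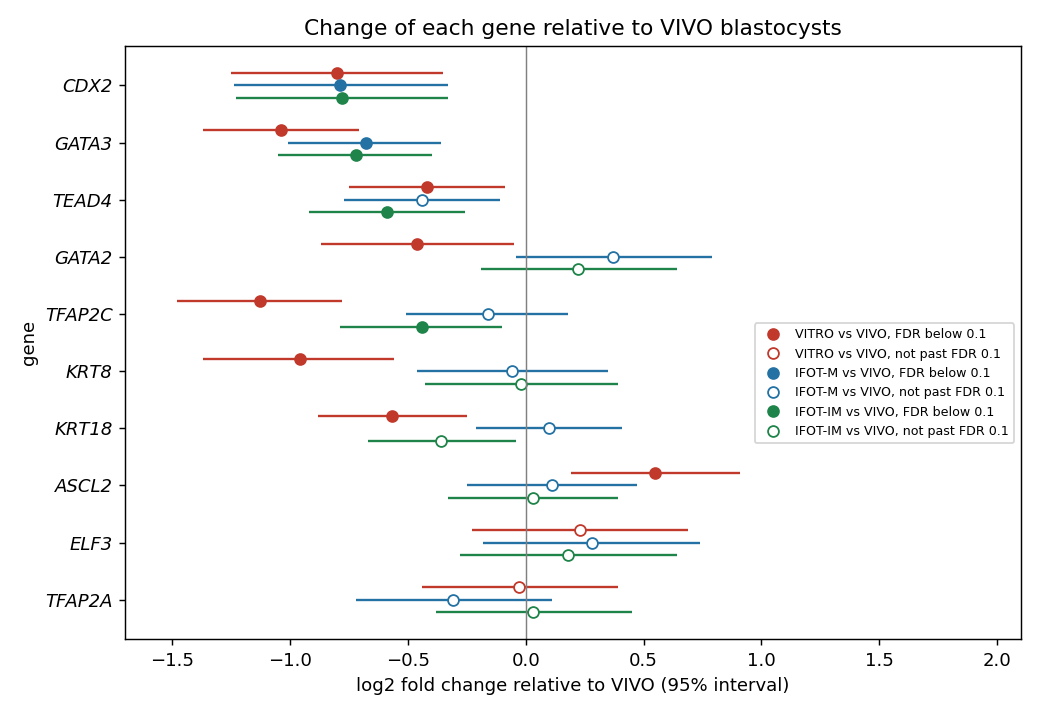
Log2 fold change of each gene relative to VIVO (x axis) in VITRO, IFOT-M and IFOT-IM, with the 95% interval from the limma fit; filled points passed an FDR of 0.1 and open points did not. CDX2 lay between -0.80 and -0.78 in all 3 groups, while KRT8 lay at -0.96 in VITRO and at -0.06 and -0.02 in the IFOT groups.

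CDX2, the caudal-type homeobox factor that maintains the trophectoderm, gave a signal of 2.31, 2.98 and 3.02 in the VIVO arrays, 1.81, 1.81 and 2.30 in VITRO, 1.85, 2.29 and 1.82 in IFOT-M, with IFOT-IM at 1.86, 1.99 and 2.13. Every VIVO array was thus above every other array, but VIVO replicate 1 was only just above the highest VITRO and IFOT-M arrays. The signal was close to the median of the arrays, and no detection call was used here. Relative to VIVO the difference was -0.80 ± 0.21 (SE) for VITRO (FDR = 0.0105), -0.79 for IFOT-M (FDR = 0.0436) and -0.78 for IFOT-IM (FDR = 0.0272), a 1.72- to 1.74-fold lower signal. Differences between the other 3 groups were at most 0.02, with a 95% interval of -0.47 to 0.44 for VITRO against IFOT-M. CDX2 was the only member called in all 3 comparisons with VIVO on the deposited, quantile and cyclic loess scales, with FDR values of 0.0106, 0.0667 and 0.0364 on the quantile scale. The calls in the IFOT groups rested on few arrays: without VIVO replicate 3 the FDR was 0.17 in IFOT-M and 0.112 in IFOT-IM, and without VIVO replicate 2 it was 0.16 and 0.105. Leaving out IFOT-M replicate 1 or 3 (0.134 and 0.148) or IFOT-IM replicate 1 (0.102) also lost the call, whereas that in VITRO was kept without any single array of VIVO or VITRO.

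GATA3, a zinc finger factor downstream of TEAD4 in the mouse, had signals of 5.28, 5.55 and 5.62 in VIVO. It was 4.27, 4.77 and 4.29 in VITRO, 4.92, 4.70 and 4.78 in IFOT-M, whereas IFOT-IM had 4.75, 4.74 and 4.79. No array of the other groups reached the lowest VIVO array, and VITRO replicate 2 lay within the IFOT range while the other VITRO arrays were below it. The change from VIVO was -1.04 ± 0.15 in VITRO (2.05-fold, FDR = 0.000303), -0.68 ± 0.15 in IFOT-M (FDR = 0.0195) and -0.72 ± 0.15 in IFOT-IM (FDR = 0.00775). VITRO and the IFOT groups did not differ past the threshold (-0.36, FDR = 0.136, and -0.31, FDR = 0.254). Each of the calls against VIVO was kept when any 1 array of the groups compared was left out. After quantile normalization the change was -0.48 in VITRO (FDR = 0.0353), -0.47 in IFOT-M (FDR = 0.11) and -0.39 in IFOT-IM (FDR = 0.144), so that 1 of the 3 calls remained. With cyclic loess the calls in VITRO (-0.38, FDR = 0.0787) and IFOT-M (-0.45, FDR = 0.092) were kept and that in IFOT-IM was not (-0.36, FDR = 0.149).

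TEAD4, the DNA-binding partner of YAP1 and WWTR1 at the head of the programme, measured 4.86, 5.06 and 5.23 in VIVO, 4.46, 4.79 and 4.64 in VITRO, 4.38, 4.62 and 4.84 in IFOT-M, with IFOT-IM at 4.49, 4.33 and 4.56. All 9 arrays of the other groups were below the VIVO arrays, IFOT-M replicate 3 by 0.02. The gene was lower in VITRO by -0.42 ± 0.15 (FDR = 0.0475) and in IFOT-IM by -0.59 ± 0.15 (FDR = 0.0236), and IFOT-M differed by -0.44 (FDR = 0.118). These calls depended on the scale, since the VITRO difference was 0.13 (FDR = 0.573) after quantile and 0.22 (FDR = 0.334) after cyclic loess normalization, and that in IFOT-IM was -0.25 (FDR = 0.38) and -0.23 (FDR = 0.407). Without VIVO replicate 3 the FDR was 0.165 in VITRO and 0.101 in IFOT-IM, and the call in VITRO was also lost without VIVO replicate 2 (0.103) or VITRO replicate 1 (0.142).

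TFAP2C, the AP-2 gamma factor required for trophoblast in the mouse, showed another pattern. Its signal was 6.14, 6.34 and 6.27 in VIVO and 6.12, 6.05 and 6.09 in IFOT-M, but 4.82, 5.25 and 5.29 in VITRO. In IFOT-IM it was 5.49, 6.01 and 5.92. All VITRO arrays were below all others, and the low IFOT-IM array was replicate 1. VITRO was lower than VIVO by -1.13 ± 0.16 (2.19-fold, FDR = 0.000258), than IFOT-M by -0.97 ± 0.16 (FDR = 0.003) and than IFOT-IM by -0.69 ± 0.16 (FDR = 0.0296). All 3 calls remained on the quantile scale (-0.58, -0.58 and -0.46; FDR = 0.00697, 0.0183 and 0.0655) and with cyclic loess (-0.44, -0.51 and -0.39; FDR = 0.0181, 0.025 and 0.0986). The call against IFOT-IM was lost without IFOT-IM replicate 2 (FDR = 0.118) or 3 (0.113). IFOT-IM itself was called lower than VIVO (-0.44, FDR = 0.0866), but the difference was -0.12 on the quantile scale and -0.29 without IFOT-IM replicate 1 (FDR = 0.295), and leaving out any VIVO array also ended the call (FDR = 0.115 to 0.219). IFOT-M did not differ from VIVO past the threshold (-0.16, 95% interval -0.51 to 0.18).

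GATA2, the relative of GATA3 that binds many of the same trophoblast genes, read 3.86, 4.23 and 4.36 in VIVO, 3.31, 3.93 and 3.82 in VITRO, 4.25, 4.68 and 4.64 in IFOT-M, whereas IFOT-IM had 4.21, 4.45 and 4.46. The VITRO arrays lay below all IFOT arrays and overlapped with VIVO. VITRO was lower than IFOT-M by -0.83 ± 0.19 (FDR = 0.0143), than IFOT-IM by -0.68 ± 0.19 (FDR = 0.0613) and than VIVO by -0.46 ± 0.19 (FDR = 0.0747). The difference from VIVO was -0.05 (FDR = 0.885) after quantile and 0.10 (FDR = 0.728) after cyclic loess normalization and was lost in 3 of 6 fits without 1 array (VIVO replicate 2 or 3, VITRO replicate 1, FDR = 0.171, 0.226 and 0.268). Against IFOT-M it held on the quantile scale (-0.58, FDR = 0.079) and missed the threshold with cyclic loess (-0.48, FDR = 0.125), and against IFOT-IM it was lost on both scales (FDR = 0.127 and 0.216) and without VITRO replicate 1, IFOT-IM replicate 2 or IFOT-IM replicate 3 (FDR = 0.162, 0.17 and 0.173). Both IFOT groups had a higher mean than VIVO without a call (0.37, FDR = 0.305, and 0.22, FDR = 0.465). With cyclic loess these differences were 0.58 (FDR = 0.0733) and 0.53 (FDR = 0.0758).

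KRT8, the type II keratin of simple epithelia, read 4.59, 5.0 and 4.88 in VIVO, 3.73, 3.75 and 4.10 in VITRO, 5.07, 4.81 and 4.42 in IFOT-M, with IFOT-IM at 4.56, 4.88 and 4.97. The VITRO arrays were below all others, and the other 3 groups overlapped. VITRO was lower than VIVO by -0.96 ± 0.19 (1.95-fold, FDR = 0.00196), than IFOT-M by -0.91 ± 0.19 (FDR = 0.009) and than IFOT-IM by -0.94 ± 0.19 (FDR = 0.0153), and none of these calls was lost without any single array of the groups compared. The quantile values were -0.47 (FDR = 0.0616), -0.63 (FDR = 0.0389) and -0.77 (FDR = 0.0277). With cyclic loess the calls against IFOT-M (-0.51, FDR = 0.0928) and IFOT-IM (-0.66, FDR = 0.0562) were kept, and that against VIVO was not (-0.34, FDR = 0.173). The IFOT groups differed from VIVO by -0.06 and -0.02 on the deposited scale and by 0.15 and 0.30 on the quantile scale, none of them past the threshold.

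KRT18, the type I partner of KRT8, gave 8.72, 8.87 and 8.78 in VIVO, 8.20, 8.28 and 8.18 in VITRO, 9.00, 8.77 and 8.89 in IFOT-M, whereas IFOT-IM had 8.10, 8.51 and 8.67. The VITRO arrays were below those of VIVO and IFOT-M and overlapped with IFOT-IM, whose replicate 1 was the lowest array of all. VITRO was lower than VIVO by -0.57 ± 0.14 (FDR = 0.00917) and than IFOT-M by -0.67 ± 0.14 (FDR = 0.0109). Against IFOT-M the quantile value was -0.42 (FDR = 0.0499) and the loess value -0.29 (FDR = 0.145). Against VIVO the call was lost on both scales (-0.28, FDR = 0.119, and -0.03, FDR = 0.884). IFOT-IM differed from VIVO by -0.36 (FDR = 0.121) and from VITRO by 0.21, whose test gave an FDR of 0.435.

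ASCL2, a basic helix-loop-helix factor needed for the placenta of the mouse, was the only member called higher in VITRO in the fit of all arrays. Its signal was 2.13, 1.82 and 2.58 in VITRO, 1.65, 1.60 and 1.63 in VIVO, 1.59, 1.76 and 1.86 in IFOT-M, with IFOT-IM at 1.67, 1.60 and 1.70. The VITRO arrays varied more than those of any other group, and 1 of them lay within the range of IFOT-M. VITRO exceeded VIVO by 0.55 ± 0.16 (FDR = 0.0207), IFOT-M by 0.44 (FDR = 0.0963) and IFOT-IM by 0.52 (FDR = 0.0942). On the quantile scale the differences were 0.38, 0.36 and 0.49 with FDR values of 0.147, 0.238 and 0.147, and with cyclic loess they missed the threshold as well. The calls against the IFOT groups were lost in 5 of 6 fits without 1 array each (FDR = 0.122 to 0.279 for IFOT-M and 0.124 to 0.219 for IFOT-IM). The signal was near the median of the arrays, and probe sets of its level had a median difference of 0.23 between VITRO and VIVO.

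ELF3, an epithelial factor of the ETS family, lay between 1.89 and 2.80 on all arrays, and TFAP2A, the AP-2 alpha factor, between 1.40 and 2.13. Neither was called in any comparison. Relative to VIVO, ELF3 differed by 0.23 (95% interval -0.23 to 0.69) in VITRO, and TFAP2A by -0.03 (-0.44 to 0.39) in VITRO and by -0.31 (-0.72 to 0.11) in IFOT-M. The intervals of ELF3 in VITRO and of TFAP2A in IFOT-M reach changes as large as that called for KRT18 in VITRO. Without VITRO replicate 1 the ELF3 difference in VITRO was 0.48 (FDR = 0.0702).

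**Figure D3:**
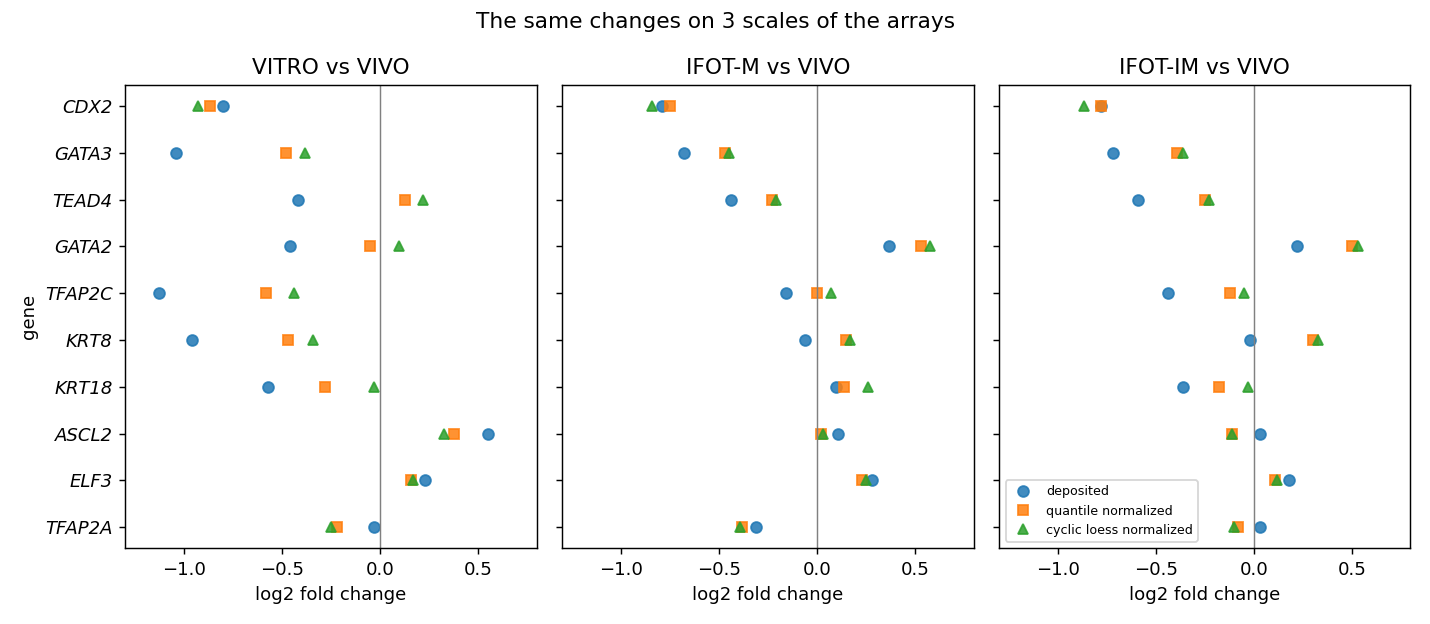
Log2 fold change relative to VIVO (x axis) of each gene in the 3 comparisons, on the deposited scale (circles), after quantile normalization (squares) and after cyclic loess normalization (triangles). CDX2 stayed between -0.93 and -0.75 throughout, whereas TEAD4 in VITRO moved from -0.42 to 0.13 and 0.22.

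The difference between VITRO and VIVO varied with the level of the signal. Over all probe sets tested its median was -0.66 among the 10% with the highest mean signal, which hold TFAP2C, GATA3, KRT8, KRT18 and TEAD4. TFAP2C (-1.13), GATA3 (-1.04) and KRT8 (-0.96) were further from VIVO than that median, and KRT18 (-0.57) and TEAD4 (-0.42) were not. GATA2 (-0.46) was in the next 10%, whose median was -0.56. CDX2 fell by 0.80 among probe sets whose median difference was 0.18. In IFOT-M and IFOT-IM the medians of the highest 10% were -0.16 and -0.34, and those around CDX2 were 0.07 and 0.12. With RNA integrity as a covariate 8 genes were called between VITRO and VIVO, 7 lower and 1 higher, whereas the calls against IFOT-M went from 5 to 4 and those against IFOT-IM from 4 to 1. Because RNA integrity was lower in the VITRO pools, this fit cannot tell it apart from the group.

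VITRO was also compared directly with IFOT-M, from which its environment differed after in vitro maturation, and with IFOT-IM, from which it differed from maturation onward. These groups also differed in the transfer into a follicle, possible recipient embryos, RNA integrity and array scale, and these cannot be told apart from the environment. Against IFOT-M, VITRO was lower for TFAP2C, KRT8, GATA2 and KRT18 and higher for ASCL2, 5 of 10 genes with a background of 21.3% (12.9% lower and 8.38% higher). The arrays of VITRO and IFOT-M did not overlap for 4 genes (32.9% of all probe sets). Against IFOT-IM it was lower for KRT8, TFAP2C and GATA2 and higher for ASCL2, 4 of 10 with a background of 8.67% (5.86% lower and 2.81% higher), and the arrays did not overlap for 4 genes (21.4%). Quantile normalization left 4 lower genes against IFOT-M (13.3%) and 2 against IFOT-IM (7.46%), and cyclic loess left 2 (11%) and 2 (5.48%). CDX2, GATA3, TEAD4, ELF3 and TFAP2A were called in neither. Of the 4 calls against IFOT-IM, 1 was left without IFOT-IM replicate 2 or 3, with RNA integrity as a covariate or with only these groups fitted, and 2 without VITRO replicate 1. No member, and none of all probe sets, passed an FDR of 0.1 in limma between IFOT-M and IFOT-IM, and none did after quantile or cyclic loess normalization. The arrays did not overlap for 2 members (14.2% of all probe sets), KRT18 and TFAP2C. The unadjusted p was below 0.05 for 7.6% of all probe sets and for 1 member, KRT18, which was higher in IFOT-M by 0.46 (FDR = 0.648).

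The within-array difference between 2 related genes was compared over the 4 groups by an exact permutation test of the F ratio over all 369600 arrangements of the arrays, with p adjusted over 3 pairs. A difference within an array shows that 2 genes changed by unequal amounts and compares no levels. GATA2 minus GATA3 was -1.42 to -1.26 in VIVO, -0.97 to -0.47 in VITRO, -0.67 to -0.02 in IFOT-M and -0.54 to -0.28 in IFOT-IM (adjusted p = 0.00818). All 9 arrays of the other groups were above the VIVO arrays, by 0.58, 1.06 and 0.95 on average, and by 0.43, 1.00 and 0.88 after quantile normalization. On the deposited scale both genes were lower in VITRO than in VIVO, GATA3 (-1.04) by more than GATA2 (-0.46). In the IFOT groups GATA3 was called lower and GATA2 was not called. TFAP2A minus TFAP2C ranged from -3.42 to -3.19 in VITRO but from -4.67 to -4.10 in VIVO, -4.59 to -4.49 in IFOT-M and -4.29 to -3.36 in IFOT-IM (adjusted p = 0.00818). The mean shift from VIVO in VITRO was 1.1 on the deposited, 0.36 on the quantile and 0.19 on the cyclic loess scale, and in IFOT-M it was -0.14, -0.38 and -0.47. On the deposited scale TFAP2A itself differed by -0.03 in VITRO and lay near the median of the arrays with no detection call, so that this shift restates the lower TFAP2C. Over all probe sets the median difference between VITRO and VIVO was 0.23 at the level of TFAP2A and -0.66 at that of TFAP2C. The part of this level dependence in the shift was not tested. KRT8 minus KRT18 was -4.53 to -4.08 in VITRO, -4.13 to -3.86 in VIVO, -4.47 to -3.93 in IFOT-M and -3.70 to -3.54 in IFOT-IM (adjusted p = 0.0228). The mean shift from VIVO was -0.39 in VITRO and 0.34 in IFOT-IM, and -0.20 and 0.47 on the quantile scale. The adjusted p stayed below 0.1 for all 3 pairs on both other scales (0.0129 to 0.0472) and without any single array (0.00214 to 0.0577).

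**Figure D4:**
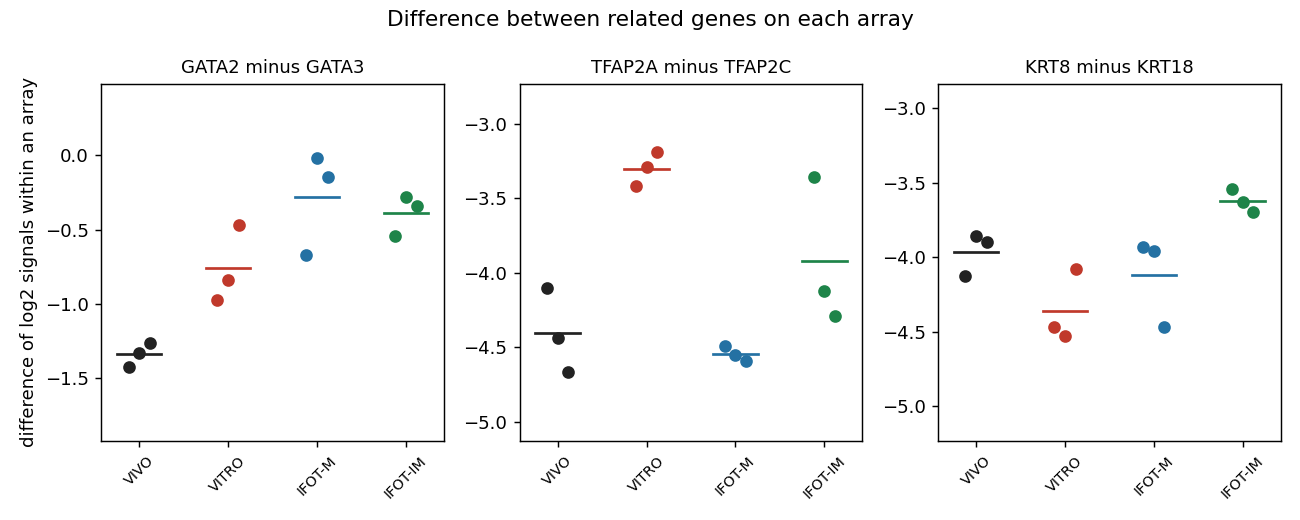
Difference of the log2 signals of 2 related genes within each array (y axis) by group (x axis), with a point for each array and a bar at the mean of 3 arrays. GATA2 minus GATA3 was lowest in the 3 VIVO arrays, and KRT8 minus KRT18 was highest in the 3 IFOT-IM arrays.

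The genes whose signal followed a member most closely were ranked by Pearson's r over the 12 arrays, a description that carries the differences between groups in the spread of the arrays. WARS1, HUWE1 and ERGIC2 were nearest to CDX2 (r = 0.92, 0.91 and 0.91), MYO1D, MOSPD1 and SNAPC3 to GATA3 (0.99, 0.97 and 0.97), and PA2G4, OGT and TP53INP1 to TFAP2C (0.99, 0.99 and 0.98). For KRT8 they were ESCO2, SF1 and ORC6 (0.96, 0.96 and 0.95), and for KRT18 SLC25A3, ACTB and NDUFB9, each with r = 0.97. No member was among the 3 nearest genes of another member.

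Genes around the members were described from lists. Of 24 genes of the Hippo pathway and its TEAD partners, 14 were lower and 2 higher in VITRO than in VIVO. For IFOT-M 7 were lower and for IFOT-IM 11, and none was higher in either. Their median change was -0.56, -0.35 and -0.36, and the median over every probe set tested was 0.13, 0.05 and 0.08. The matching shares of all probe sets were 22.7%, 6.87% and 12.6% for lower calls and 25.1%, 3.21% and 7.95% for higher calls. No test compared the list with these shares. The counts of the list were 11, 5 and 7 lower and none higher on the quantile scale, and 9, 5 and 7 lower with 1 higher in VITRO with cyclic loess. PARD6B, an apical polarity protein, was lower in all 3 groups (-0.90, -0.73 and -0.68; FDR = 0.000375, 0.00792 and 0.00602). LATS1, the kinase that holds YAP1 out of the nucleus, was also lower in all 3 (-1.16, -0.52 and -0.83; FDR = 4.23e-05, 0.0264 and 0.00107). RHOA, a GTPase of the actin cortex, was lower in VITRO (-0.80, FDR = 0.00468), with IFOT-M at 0.07 and IFOT-IM at -0.30, and TEAD3 was not called (-0.10, 0.01 and -0.01). The 2 genes higher in VITRO were AMOTL1 (0.48, FDR = 0.0426) and SAV1 (0.42, FDR = 0.0338).

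Of 14 tested genes of Notch and BMP signalling, which feed into CDX2 in the mouse embryo, 6 were lower and 2 higher in VITRO (JAG2, 0.54, FDR = 0.00964, and DLL1, 0.35, FDR = 0.0692), and none was higher in either IFOT group. SMAD4, the shared mediator of BMP signals, was lower in VITRO by -1.27 (FDR = 0.000279), in IFOT-M by -0.78 (FDR = 0.0251) and in IFOT-IM by -0.86 (FDR = 0.00828). HES1, a Notch target, was the other gene called lower in IFOT-M (-0.85, FDR = 0.0158) and was lower in VITRO (-0.76, FDR = 0.00621), with IFOT-IM at -0.47 (FDR = 0.104). RBPJ, the DNA-binding factor of the Notch pathway, and SMAD1 were lower in VITRO (-0.91 and -0.93; FDR = 0.000892 and 0.00422) and IFOT-IM (-0.55 and -0.59; FDR = 0.0347 and 0.0776), where BMPR1A was the other called gene besides SMAD4 (-1.03, FDR = 0.00117). On the quantile scale, as with cyclic loess, 6 genes were lower and 1 higher in VITRO, with 1 lower in IFOT-M and 2 lower in IFOT-IM.

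Among 25 other trophoblast transcription factors, 8 were lower and 7 higher in VITRO. The same comparison called 22.7% of all probe sets lower and 25.1% higher, with 6.87% and 3.21% for IFOT-M and 12.6% and 7.95% for IFOT-IM. Whether the list exceeded these shares was not tested. The median change of the factors in VITRO was 0.03, beside 0.13 over all probe sets. TBX3 (-0.68, FDR = 0.000595), KLF5 (-0.85, FDR = 0.000648) and CITED2 (-1.02, FDR = 0.00488) were among the 8 lower in VITRO, and SOX15 was not called (-0.34, FDR = 0.103). Of the 7 higher in VITRO, VGLL3 (0.69, FDR = 0.00203), RXRA (0.68, FDR = 0.00387) and PPARG (0.67, FDR = 0.00468) had the lowest FDR. GCM1 (0.67, FDR = 0.0358), DLX4 (0.55, FDR = 0.0322), HAND1 (0.52, FDR = 0.0273) and EOMES (0.34, FDR = 0.068) were the rest. In IFOT-IM TBX3 (-0.45, FDR = 0.0176) and KLF5 (-0.64, FDR = 0.0092) were the 2 lower factors. RXRA (0.66, FDR = 0.012), GCM1 (0.70, FDR = 0.0595), VGLL3 (0.39, FDR = 0.0727) and EOMES (0.41, FDR = 0.0686) were the 4 higher ones, as they were in VITRO. VGLL3 (0.43, FDR = 0.0827) was the only factor called in IFOT-M. On the quantile scale, as with cyclic loess, 1 factor was higher and none lower in IFOT-IM. In IFOT-M none was called on the quantile scale, and 1 was lower with cyclic loess. The mean signal over all arrays was 0.80 for EOMES and 0.99 for PPARG, below the array medians, and 1.82 for VGLL3, near them, and no detection call was used here. The balance of lower and higher factors in VITRO was 3 to 4 on the quantile scale and 1 to 6 with cyclic loess.

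The other keratins and the desmosomal plaque, to which keratin filaments anchor, held 17 tested genes, of which 6 were lower and 2 higher in VITRO (PPL, 0.34, FDR = 0.0303, and PKP3, 0.46, FDR = 0.0459). DSG2 (-0.78, FDR = 0.0027), PKP2 (-0.90, FDR = 0.000651), JUP (-1.11, FDR = 0.00121) and DSC2 (-0.43, FDR = 0.0213) were among the lower ones. The rest of the lower genes were the keratin KRT5 (-0.59, FDR = 0.0241) and DSP (-0.34, FDR = 0.0888). In IFOT-IM PKP2 (-0.57, FDR = 0.023), JUP (-0.78, FDR = 0.0222) and DSC2 (-0.50, FDR = 0.0241) were lower and PPL higher (0.30, FDR = 0.0924), and in IFOT-M only DSC2 was called (-0.42, FDR = 0.0777). In VITRO, 22.7% of all probe sets fell among the lower calls and 25.1% among the higher ones. The shares were 12.6% and 7.95% with IFOT-IM, then 6.87% and 3.21% with IFOT-M. The list was not tested against them. Its median change in VITRO was 0.07, where every probe set tested gave 0.13. On the quantile scale 1 gene of the list was lower in VITRO, 1 was higher in IFOT-M and none was called in IFOT-IM.

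Of 13 tested secreted proteins and steroid enzymes of the ruminant trophoblast, 5 were called lower for VITRO, 3 for IFOT-M and 5 for IFOT-IM. In the same order, 22.7%, 6.87% and 12.6% of all probe sets were lower, and 25.1%, 3.21% and 7.95% were higher. HSD3B1, a steroidogenic dehydrogenase, was lower by -2.02 (FDR = 1.89e-05), -1.39 (FDR = 0.00112) and -1.44 (FDR = 0.000436). CYP11A1, which makes pregnenolone from cholesterol and is also a marker of granulosa cells, was lower by -0.49, -0.54 and -0.43 (FDR = 0.00493, 0.0124 and 0.0219). PAG2, a pregnancy-associated glycoprotein, was lower in VITRO (-1.29, FDR = 0.00133) and IFOT-IM (-0.79, FDR = 0.0437), as was PTGS2 (-0.44, FDR = 0.0591, and -0.86, FDR = 0.00583), and TKDP1 was the remaining one lower in VITRO (-1.08, FDR = 0.0269). SSLP1 was lower in IFOT-M (-1.50, FDR = 0.0353) and IFOT-IM (-1.74, FDR = 0.00964) but lay at 0.02 in VITRO, which exceeded both IFOT groups (1.52 and 1.76; FDR = 0.0207 and 0.0211). CSH2 was the only gene of the list called higher, in VITRO (0.71, FDR = 0.00427) and in IFOT-IM (0.53, FDR = 0.0436). On the quantile scale 4, 2 and 4 genes of the list were lower, and 1 was higher in VITRO and none in IFOT-IM. PAG and TKDP genes are families of similar sequence, and their probe sets may share signal.

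Genes of the other lineages and cells that a pool could hold were measured beside the members. Of 18 inner cell mass and epiblast genes 8 were lower and 1 was higher in VITRO than in VIVO, against 5 lower and 2 higher on the quantile scale and 4 and 3 with cyclic loess. On the deposited scale TFCP2L1 was the only one lower in IFOT-M (-0.59, FDR = 0.0536) and TFCP2L1 (-0.76, FDR = 0.00969) and ZFP42 (-0.46, FDR = 0.0178) were lower in IFOT-IM. The mean of the list per array was 3.86 to 3.94 in VIVO, 3.48 to 3.56 in VITRO, 3.85 to 3.89 in IFOT-M and 3.84 to 3.92 in IFOT-IM, and that of the 10 trophectoderm genes was 4.13 to 4.39, 3.61 to 4.01, 4.12 to 4.16 and 3.98 to 4.11. SOX2 fell by 1.16 (FDR = 7.77e-05) and DPPA3 by 0.80 (FDR = 0.00181) in VITRO, while NANOG was higher in VITRO (1.12, FDR = 0.000648) and IFOT-IM (0.97, FDR = 0.00443) and DPPA4 in both IFOT groups (1.01 and 0.88; FDR = 0.00112 and 0.00115). Of 15 hypoblast genes 4 were lower in VITRO, namely GATA6 (-0.79, FDR = 0.000333), PDGFRA (-0.36, FDR = 0.0265), LAMB1 (-0.68, FDR = 0.00262) and LAMC1 (-0.47, FDR = 0.0375), and GATA4 was higher (0.38, FDR = 0.0609). Beside these counts, 22.7% of all probe sets were lower and 25.1% higher in VITRO, and whether the hypoblast list exceeded these shares was not tested. On the quantile scale 2 hypoblast genes were lower and with cyclic loess 1, and none was higher on either. In IFOT-M the 2 lower genes were LAMB1 (-0.66, FDR = 0.0158) and APOA1 (-0.99, FDR = 0.0154). In IFOT-IM APOA1 (-1.27, FDR = 0.00203), LAMB1 (-0.64, FDR = 0.01), LAMC1 (-0.56, FDR = 0.0355) and GATA6 (-0.32, FDR = 0.0938) were lower and GATA4 higher (0.46, FDR = 0.0595), against 2 lower and 2 higher on the quantile scale. The list means of cumulus and granulosa cell genes were 1.25 to 1.35 in VIVO and 1.45 to 1.51 in VITRO, those of oviduct and endometrial epithelium 1.64 to 1.73 and 1.74 to 1.88, those of blood cells 2.07 to 2.12 and 2.03 to 2.30, and those of the oocyte 1.41 to 1.48 and 1.58 to 1.75. In VITRO 2 of 11, 3 of 9, 3 of 10 and 2 of 9 tested genes of these lists were higher than in VIVO, and 1 gene each of the first 3 was lower (CYP11A1, MUC1 and HBA). Of all probe sets 25.1% were higher in VITRO. Their median difference was 0.23 to 0.26 in deciles 1 to 5 of the mean signal, the weakest, so weak signals were generally higher in VITRO. On the quantile scale 1 gene of the blood list and none of the others was higher. In all groups the cumulus and granulosa and the oocyte lists lay below the array medians of the group, and the blood list lay above them. The oviduct and endometrial list lay at 1.62 to 1.88, beside array medians of 1.75 to 1.97. No detection call was used here, and the part of the 4 lists in the results for the members was not tested.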

How the data were processed

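Total RNA (15 ng per pool) was labelled and hybridized to Affymetrix Bovine Gene 1.0 ST arrays. Per the study's methods the authors processed the raw intensities by RMA in Expression Console, and their deposited values, from -0.39 to 12.6, were read as log2 because of that range. The methods state RMA background correction and quantile normalization at transcript level, but the deposited arrays differ in median and spread, and how the quantile step was run is not given in the sources used here. No sequences or genome coordinates were used.

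The 2358 probe sets with the lowest mean of 26773 were removed. All 4 groups entered 1 limma 3.58.1 fit (lmFit, eBayes) in R 4.3.3, with statmod 1.5.0 installed, leaving 8 residual degrees of freedom. Tests were two-sided, with Benjamini-Hochberg FDR over the probe sets tested and a threshold of 0.1. Related genes were compared by an exact permutation test. The fits and the permutation test were tested on simulated data.

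The members and gene lists were chosen with earlier results of these data known. All 10 members, from each list the 4 genes with the highest mean, any gene behind a count of 5 or fewer, and the 3 nearest patterns of the members described in depth were to be named. Other settings were a fit of just the compared groups, other filters, quantile and cyclic loess normalization, other variance models, array weights, a block for the replicate number, RNA integrity number (RIN) as a covariate, an FDR below 0.05 and leaving out each array. The replicates are stated to be separate pools. Precision is limited by how few arrays there are. Raw intensities were not analysed here.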

Additional observations from a re-analysis of the deposited data

How the results depend on the processing

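The number of members called depended on the scale of the arrays and, in some comparisons, as much or more on the model or single arrays. Between VITRO and VIVO 8 calls became 4 after quantile and 3 after cyclic loess normalization. In IFOT-M against VIVO 2 became 1 after quantile normalization and with an unmoderated model, and in IFOT-IM against VIVO 4 became 1 (quantile) and 2 (cyclic loess, 1 lower and 1 higher). VITRO against IFOT-M fell from 5 to 2 with cyclic loess, and VITRO against IFOT-IM from 4 to 1 with only these groups fitted or with RIN as a covariate, and to 2 with quantile, cyclic loess, an unmoderated model or an FDR below 0.05. The test over 4 groups fell from 8 to 4 with cyclic loess. Without 1 array the counts were 6 to 8 (VITRO vs VIVO), 1 to 2 (IFOT-M vs VIVO), 1 to 5 (IFOT-IM vs VIVO), 4 to 6 (VITRO vs IFOT-M), 1 to 5 (VITRO vs IFOT-IM) and 5 to 8 (4 groups), and 0 between IFOT-M and IFOT-IM. The test over 4 groups gave 5 without VIVO replicate 2 or 3. IFOT-M vs VIVO gave 1 without VIVO replicate 2, VIVO replicate 3 or IFOT-M replicate 1, and IFOT-IM vs VIVO gave 1 without VIVO replicate 3 and 2 without VIVO replicate 2 or IFOT-IM replicate 1.

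In the comparisons with VIVO signs changed in these cases. In VITRO vs VIVO, GATA2 was 0.10 with cyclic loess, TEAD4 0.13 with quantile and 0.22 with cyclic loess, and TFAP2A 0.01 with array weights and 0.27 with RIN, ranging from -0.17 to 0.18 without 1 array. In IFOT-M vs VIVO, TFAP2C was 0.07 with cyclic loess and KRT8 0.15 (quantile) and 0.17 (cyclic loess), with -0.21 to 0.12 without 1 array. In IFOT-IM vs VIVO, ASCL2 was -0.11 with quantile and with cyclic loess, TFAP2A -0.08 (quantile), -0.10 (cyclic loess) and -0.02 (array weights), with -0.09 to 0.16 without 1 array, and KRT8 0.30, 0.33 and 0.03 in the same order, with -0.14 to 0.10 without 1 array. Among the other comparisons, VITRO vs IFOT-M for GATA3 was -0.36 on the deposited scale and 0.07 with cyclic loess, and IFOT-M vs IFOT-IM for GATA3 was 0.04 and, with quantile, -0.08, as CDX2 there was -0.01 and 0.03, none of them called. The causes were not tested. No filter, a stricter filter and a robust, trended variance changed no direction.

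Same-numbered arrays of different groups did not deviate together (r = -0.08 to 0.12 over 18 pairs, 1 of them above 0.1), so the numbers are taken only as names. With a replicate block TEAD4 in IFOT-M vs VIVO passed the threshold (-0.44, FDR = 0.0896), which made 3 calls there in place of 2, and the counts of the other comparisons stayed at 8, 4, 5, 4 and 0. Averaging probe sets of a symbol did not apply, since each member had 1. The normalization and single-array alternatives for the related pairs were chosen after seeing the data, and no adjusted p crossed 0.1. The signals of CDX2, ASCL2, ELF3 and TFAP2A lay nearest to the array median, and background intensities were not used here.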
